A study of Mus musculus with 98 samples.

Results

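Microexons are exons of at most 30 nucleotides that are skipped or included as a unit during splicing. In the deposited table of alternative splicing events, made with rMATS, 1297 skipped exon events had a middle exon of at most 30 nucleotides lying between its 2 flanking exons. They were 1.48% of the 87692 skipped exon events and part of 117460 events of all kinds. The 1297 events described 874 distinct exons in 741 genes, because 1 exon can be listed with different flanking exons: 633 exons had 1 event, 241 had more, and the most had 13. For each event and library the table gives the inclusion level, PSI, which is the fraction of a gene's transcripts across that junction pair that contain the exon (0 is always skipped, 1 is always included).

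The 98 mouse muscle libraries formed 24 groups. HSALR mice, all homozygous, carry a human skeletal actin transgene, expressed in skeletal muscle under that gene's own promoter, with a long CTG repeat in its untranslated end, and model the muscle disease myotonic dystrophy type 1. FVB/NJ mice, the background strain, carry no transgene and were the wild-type comparison, here called FVB. All treated mice were HSALR mice. They received an antisense PMO (a morpholino oligomer against the CUG repeat) at 30 mg/kg, or EEV4-PMO, the PMO joined to a carrier that aids delivery, at 15 or 30 mg/kg. PBS was the vehicle for both genotypes. The gastrocnemius dose set at 7 days held 4 FVB PBS, 8 HSALR PBS, 4 PMO 30 mg/kg, 4 EEV4-PMO 15 mg/kg and 4 EEV4-PMO 30 mg/kg libraries. The gastrocnemius time course held 4 libraries each of EEV4-PMO 15 mg/kg at 1, 2 and 4 days, and of FVB PBS and HSALR PBS at 4 days. The quadriceps time course had the same groups plus EEV4-PMO 15 mg/kg at 7 days, again with 4 libraries each, and its PBS libraries were taken at 4 days. In a separate quadriceps set labelled with 5-ethynyl uridine (EU), a nucleoside that marks newly made RNA, nascent and total RNA each had 4 libraries of HSALR PBS mice at 4 days and 3 libraries each at 1 and 2 days after EEV4-PMO 15 mg/kg. The last set was HSALR quadriceps at 3 months, with 4 PBS and 6 EEV4-PMO 15 mg/kg libraries.

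In myotonic dystrophy, RNA with an expanded CUG repeat binds the muscleblind (MBNL) splicing factors and leaves fewer of them free to act on their normal targets, and the balance of many muscle exons shifts toward forms seen before birth. Microexons are best known from neurons, where the SRRM4 protein promotes their inclusion, but skeletal muscle also uses them, for example in troponin T and in the ryanodine receptor. A microexon whose length is a multiple of 3 adds a few amino acids without changing the reading frame of the rest of the protein.

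The exons on which the results turn are shown as spliced mRNA in the GENCODE vM21 annotation of GRCm38, 5′ to 3′, with the microexon in capitals and up to 30 nucleotides of each neighbouring exon in lower case, so that a reader can see how short the inserted segments are. Coordinates are those of the microexon. The Dctn1 segment and the segments of the first 15-nucleotide and the 12-nucleotide exon of Tnnt3 come from annotated transcripts whose neighbouring exons differ from those of the event measured. The sequences of Tnnt3 are given in gene order, since these exons lie next to each other and join in varying combinations.
Tnnt3, 18 nucleotides, chr7:142502740-142502757, plus strand: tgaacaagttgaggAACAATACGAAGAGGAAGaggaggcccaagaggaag
Tnnt3, the first 15-nucleotide exon, chr7:142504250-142504264, plus strand: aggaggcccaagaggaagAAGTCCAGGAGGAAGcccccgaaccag
Tnnt3, 12 nucleotides, chr7:142505288-142505299, plus strand: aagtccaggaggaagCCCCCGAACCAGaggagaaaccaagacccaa
Tnnt3, the second 15-nucleotide exon, chr7:142505516-142505530, plus strand: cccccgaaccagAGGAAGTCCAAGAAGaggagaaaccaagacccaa
Pdlim7, chr13:55507864-55507880, minus strand: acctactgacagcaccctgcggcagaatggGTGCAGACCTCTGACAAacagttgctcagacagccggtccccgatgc
Ryr1, chr7:29056234-29056248, minus strand: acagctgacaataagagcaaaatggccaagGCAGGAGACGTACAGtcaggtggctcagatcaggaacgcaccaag
Slc8a3, chr12:81209454-81209471, minus strand: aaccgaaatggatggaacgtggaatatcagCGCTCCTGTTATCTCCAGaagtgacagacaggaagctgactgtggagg
Ppp3cc, chr14:70225928-70225954, minus strand: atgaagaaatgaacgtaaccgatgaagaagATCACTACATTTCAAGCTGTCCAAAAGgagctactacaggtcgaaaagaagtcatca
Cpeb2, chr5:43268869-43268892, plus strand: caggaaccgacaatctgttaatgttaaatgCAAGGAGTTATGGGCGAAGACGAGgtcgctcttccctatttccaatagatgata
Tjap1, chr17:46260880-46260909, minus strand: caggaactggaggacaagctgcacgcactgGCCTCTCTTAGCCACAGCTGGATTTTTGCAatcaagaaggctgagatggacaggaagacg
Dctn1, chr6:83187764-83187784, plus strand: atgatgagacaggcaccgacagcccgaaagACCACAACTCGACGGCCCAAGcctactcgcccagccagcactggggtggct
Rilpl1, chr5:124495899-124495922, minus strand: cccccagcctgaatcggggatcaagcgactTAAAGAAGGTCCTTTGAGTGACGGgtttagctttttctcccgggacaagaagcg
All 12 of these exons are coding. Of the 12, 11 have a length that is a multiple of 3, and the 17-nucleotide exon of Pdlim7 does not.

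The 874 microexons were mostly coding and mostly kept the reading frame. Their lengths ran from 3 to 30 nucleotides with a median of 24, and the most common lengths were 27 (128 exons), 30 (121 exons) and 24 (106 exons). Of all 874, 595 (68.1%) had a length that is a multiple of 3, against 40.6% of the 54736 distinct skipped exons of 31 to 300 nucleotides. The annotation held 873 of them as exons: 762 coding, 24 coding in part, 30 in 5′ untranslated regions, 7 in 3′ untranslated regions and 50 in noncoding transcripts. Among the 762 coding ones 70.3% were a multiple of 3, and among the 111 others 53.2%. Very short exons were few, with 133 of at most 15 nucleotides and 46 of at most 9. In 646 genes there was 1 microexon, and 21 genes had 3 or more. The most were in Trdn, the junctional protein triadin that anchors calcium release proteins (10), in Tnnt3, fast skeletal troponin T (7), in Clasp2, a microtubule plus-end protein (7), and in Ryr1, the calcium release channel of the sarcoplasmic reticulum (5).

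**Figure D1:**
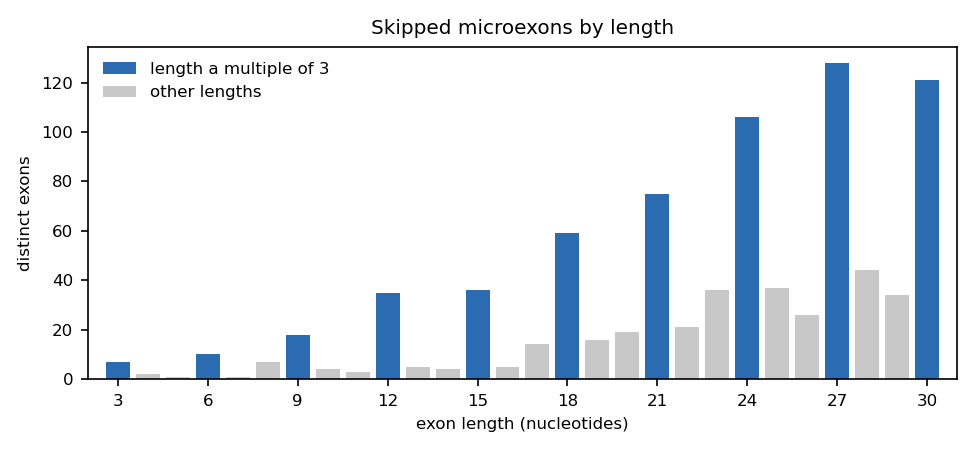
Number of distinct microexons (y axis) at each exon length in nucleotides (x axis), with lengths that are a multiple of 3 in blue and other lengths in grey. The blue bars stand above their grey neighbours at each step, with 128 exons at 27 nucleotides and 121 at 30.

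Inclusion differed with length and with the reading frame. In FVB gastrocnemius at 7 days, 598 distinct microexons had a value in all 4 libraries. Their mean PSI was above 0.9 for 50.5%, below 0.1 for 24.9% and between these bounds for 24.6%. The 78 exons of at most 15 nucleotides had a median PSI of 0.037, and the 520 of 16 to 30 nucleotides a median of 0.959. The shortest exons were mostly skipped and the longer ones mostly included in muscle. Of the microexons that are a multiple of 3, 29.0% of 417 had intermediate PSI, against 14.4% of 181 of the other lengths. For skipped exons of 31 to 300 nucleotides these shares were 9.34% and 5.62%. In HSALR PBS gastrocnemius at 7 days 25.7% of 552 microexons with a value in all 8 libraries were intermediate. These shares are descriptions, since many events had the value 0 or 1 in every library and the table lists no read numbers.

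The number of reads behind a PSI is not known, because the files give fractions without junction counts, so no counting interval could be set. Between 397 and 703 of the 874 exons had a value in a library, and 282 of the 1297 events had one in all 98. FVB quadriceps replicate 3 had values for 488 exons where the other 3 libraries of its group had 628 to 661, and nascent RNA replicate 3 at 2 days had 497 where the other two had 643 and 648. Without the first, 9 of 666 events tested were called between FVB and HSALR in quadriceps, and without the second 8 of 710 in nascent RNA at 2 days, beside the counts given with all libraries below. The labels call the libraries of a group replicates without saying that they came from separate animals, so p-values measure the spread between these libraries, which may be technical. Skeletal muscle markers were all present, 8 of 8, with summed TPM, a gene level scaled for transcript length and library size, of 196000 to 220000 in FVB and 160000 to 182000 in HSALR PBS gastrocnemius at 7 days. The Schwann cell list (10 of 10 measured) summed to 338 to 738 and 122 to 512, the neuron list (8 of 8) to 3.77 to 4.31 and 2.74 to 4.80, the endothelial list (6 of 6) to 211 to 252 and 143 to 183, and the macrophage list (6 of 6) to 33.8 to 61.5 and 48.2 to 116, in the same order. The fibroblast list (6 of 6) summed to 849 to 1930 and 743 to 1380, the lymphocyte list (5 of 5) to 1.07 to 1.43 and 0.799 to 1.86, and the adipocyte list (5 of 5) to 44.8 to 238 and 25.2 to 186. No marker of these lists was at 0 in all libraries of either of these groups. The part of these cell types in the PSI differences was not tested. In whole muscle, fewer cells of a type and less RNA per cell cannot be told apart.

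Microexons differed between FVB and HSALR muscle in all 3 sets that allow the comparison. Exons of Tnnt3, Pdlim7, Ryr1, Cpeb2, Tjap1, Dctn1 and Rilpl1 were called in each. In gastrocnemius at 7 days 17 of 690 microexon events tested were called, that is 2.46%, where 0.555% of all 76968 events tested were called. An event was called when the adjusted p of limma (a linear model fitted across all events, with Benjamini-Hochberg adjustment) was under 0.05 and the group means differed by at least 0.1 PSI. In gastrocnemius at 4 days 11 of 680 were called (1.62%, against 0.33% of all events), and in quadriceps at 4 days 13 of 588 (2.21%, against 0.449%). The share called was 0.787%, 0.427% and 0.554% in the same order for events of 31 to 300 nucleotides that keep the frame, and 0.147%, 0.099% and 0.166% for those that shift it. Events that held 1 value in every library of a set could not be called. They were 28.1%, 16.8% and 9.52% of the microexon events tested, in the same order. Among all events tested they were 39.6%, 18.8% and 15.7%. The shares called are set side by side as descriptions, and their difference was not tested. Of the 17, inclusion was higher in FVB for 7 and lower for 10. Together 18 events, for 17 exons of 14 genes, were called in at least 1 of the 3 comparisons, and 17 of the 18 were a multiple of 3 long. For 8 events the call was made in all 3. Of the 17 exons, those of Clasp1, Ldb3 and Slc8a3 (3 exons) held the short motif bound by MBNL proteins, searched as TGCT or TGCC or either of these with C as its first base, on the transcript's strand and with overlaps allowed, against 168 of 873 microexons (19.2%).

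**Figure D2:**
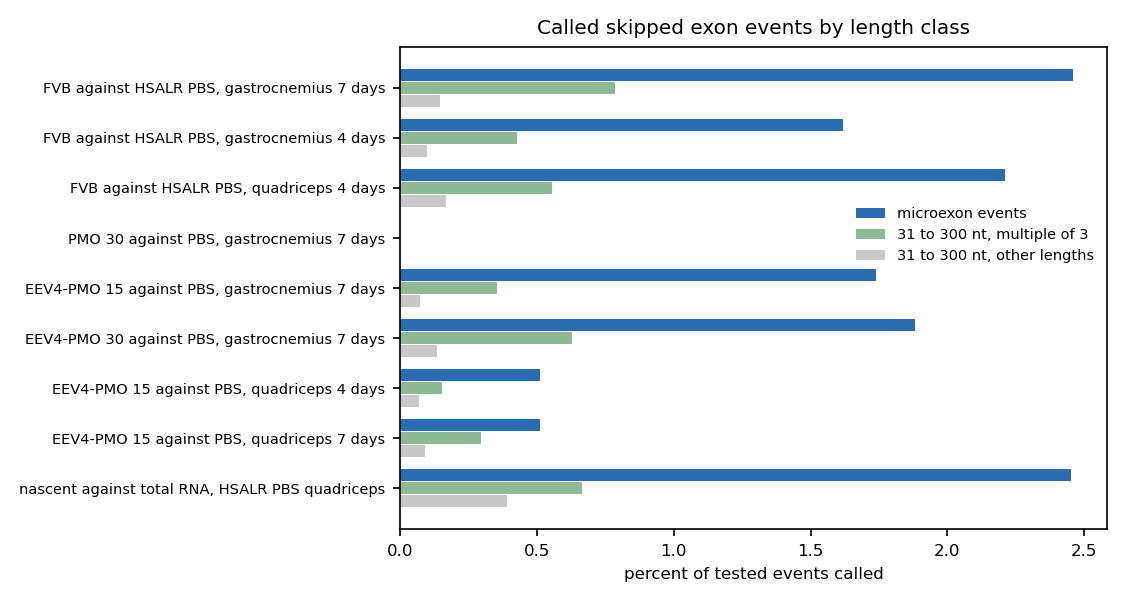
Percent of tested skipped exon events called (x axis) in each comparison (y axis), for microexon events (blue), frame-keeping events of 31 to 300 nucleotides (green) and other events of 31 to 300 nucleotides (grey). Of the 9 comparisons drawn, PMO 30 against PBS has no bar and the other 8 have the blue bar as the longest, at 2.46% for FVB against HSALR in gastrocnemius at 7 days.

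Troponin T, which ties the troponin complex to tropomyosin on the thin filament, changed in 4 neighbouring microexons of Tnnt3. The second 15-nucleotide exon had PSI values of 0.277, 0.208, 0.220 and 0.176 in FVB gastrocnemius at 7 days, and from 0.664 to 0.917 with a median of 0.826 in the 8 HSALR PBS libraries. The groups did not overlap, and the exon was mostly skipped in FVB and mostly included in HSALR (difference −0.60, SE 0.0425, adjusted p = 1.4e-08). The 18-nucleotide exon went the same way, with 0.050, 0.115, 0.084 and 0.077 in FVB and 0.615 to 1.0, median 0.875, in HSALR PBS (difference −0.76, SE 0.124, adjusted p = 0.0017). The other two Tnnt3 exons went the opposite way and were included in FVB. The 12-nucleotide exon had 0.882, 0.894, 0.795 and 0.828 in FVB and 0.062 to 0.631, median 0.127, in HSALR PBS, where replicate 6 was the library at 0.631 (difference 0.67, adjusted p = 6e-06). The first 15-nucleotide exon had 0.850, 0.854, 0.894 and 1.0 in FVB and 0.108 to 0.377, median 0.206, in HSALR PBS (difference 0.66, adjusted p = 2e-06). The 18-nucleotide exon has 1 event and each of the other 3 is listed with several pairs of flanking exons, often each other, so the 4 are not independent readings. The first 15-nucleotide exon is a case in point: joined to the exon at 142508335 rather than that at 142507750, it had a mean PSI of 0.080 ± 0.046 (SD, n = 4) in FVB and 0.044 ± 0.026 (SD, n = 8) in HSALR PBS. These events of the first 15-nucleotide and 12-nucleotide exons, and those of Slc8a3 and of the Rilpl1 event with the far flanking exon below, fell outside the naming rule and were chosen after their values were seen.

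At the Z-disc, which anchors the thin filaments, Pdlim7 and Ldb3 changed. Both encode PDZ-LIM proteins that bind alpha-actinin. The 17-nucleotide exon of Pdlim7 had PSI 0.9, 0.924, 0.940 and 0.937 in FVB and 0.467 to 0.747, median 0.697, in HSALR PBS. Every FVB library lay above every HSALR library (difference 0.28, SE 0.047, adjusted p = 0.0026). It was the only exon among the 17 whose length is not a multiple of 3. With the compared groups fitted alone, its adjusted p was 0.089. The 15-nucleotide exon of Ldb3 was lower in FVB, at 0.214, 0.289, 0.341 and 0.357, than in HSALR PBS at 0.408 to 0.671, median 0.620 (difference −0.28, adjusted p = 0.0094, and 0.066 without FVB replicate 1).

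Exons of 3 calcium genes were included more in FVB. The 15-nucleotide exon of Ryr1, known as the ASI segment of the calcium release channel, had PSI 0.425, 0.475, 0.435 and 0.414 in FVB gastrocnemius at 7 days and 0.0 to 0.046, median 0.027, in HSALR PBS. It was nearly absent from HSALR transcripts and intermediate in FVB, with the smallest standard error of the 17 (difference 0.41, SE 0.0155, adjusted p = 5.2e-13). The 18-nucleotide exon of Slc8a3, a sodium-calcium exchanger of the plasma membrane, had 0.907, 0.974, 1.0 and 0.861 in FVB and 0.076 to 0.272, median 0.173, in HSALR PBS (difference 0.76, SE 0.0575, adjusted p = 3.6e-08). This exon is listed in 7 events, and only the event given here was called in this set. The Slc8a3 values below are of the same event. The 27-nucleotide exon of Ppp3cc, a catalytic subunit of the calcium-dependent phosphatase calcineurin, had 0.759, 0.773, 0.879 and 0.684 in FVB and 0.130 to 0.332, median 0.225, in HSALR PBS (difference 0.56, SE 0.0432, adjusted p = 5.2e-08). All 3 exons separated the genotypes without overlap.

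Exons of an RNA-binding protein and of a Golgi protein were included less in FVB than in HSALR. The 24-nucleotide exon of Cpeb2, which binds messenger RNA tails and controls translation, had PSI 0.344, 0.264, 0.361 and 0.287 in FVB and 0.928 to 1.0, median 0.947, in HSALR PBS. Nearly all HSALR transcripts kept it and only a minority of FVB transcripts did (difference −0.65, SE 0.0298, adjusted p = 9.9e-12). The 30-nucleotide exon of Tjap1, a protein found at tight junctions and the Golgi, had 0.015, 0.0, 0.060 and 0.048 in FVB and 0.375 to 0.722, median 0.518, in HSALR PBS (difference −0.51, SE 0.0553, adjusted p = 9.4e-06). In FVB it was almost never included.

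Called exons also lay in 2 genes of dynactin, the complex that links dynein to its cargo on microtubules, and in Clasp1. The 21-nucleotide exon of Dctn1, the large dynactin subunit, had PSI 0.540, 0.515, 0.458 and 0.538 in FVB and 0.794 to 0.9, median 0.825, in HSALR PBS (difference −0.32, SE 0.0384, adjusted p = 3.9e-05). The 21-nucleotide exon of Dctn4, another dynactin subunit, had 0.0, 0.032, 0.0 and 0.0 in FVB and 0.244 to 0.401, median 0.324, in HSALR PBS (difference −0.31, adjusted p = 1.7e-06). The 24-nucleotide exon of Clasp1, which binds growing microtubule ends, had 0.217, 0.114, 0.322 and 0.284 in FVB and 0.538 to 0.870, median 0.635, in HSALR PBS (difference −0.43, adjusted p = 6.7e-05). All 3 were included more in HSALR, without overlap between the groups.

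The remaining 3 exons lie in genes of membrane traffic and lipid signalling. The 24-nucleotide exon of Rilpl1, which binds Rab proteins at lysosomes and cilia, is listed with a near and a far flanking exon. With the far one, PSI was 0.962, 1.0, 0.968 and 0.952 in FVB and 0.434 to 0.683, median 0.529, in HSALR PBS (difference 0.44, adjusted p = 1e-05). With the near one, the means were 0.580 ± 0.086 (SD, n = 4) and 0.361 ± 0.085 (SD, n = 8), which was not called. The 21-nucleotide exon of Ap1b1, a subunit of the clathrin adaptor of the Golgi, was lower in FVB at 0.106, 0.1, 0.106 and 0.216 than in HSALR PBS at 0.292 to 0.554, median 0.379 (difference −0.26, adjusted p = 0.002, and 0.15 on the logit scale). The 18-nucleotide exon of Inpp4a, a phosphoinositide phosphatase, had 0.478, 0.411, 0.308 and 0.425 in FVB and 0.449 to 0.899, median 0.687, in HSALR PBS (difference −0.29, adjusted p = 0.019). Its groups overlapped. Its adjusted p rose to 0.059, 0.11 and 0.05 without FVB replicates 2, 3 and 4 and to 0.27 with the compared groups fitted alone. Where groups did not overlap in the exons above, the same libraries had given the call, so the separation adds no support.

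The same exons recurred in the time course libraries, which share none with the dose set. Of the 17 events called in gastrocnemius at 7 days, 16 could be tested at 4 days and all 16 went the same way. Among them 10 were called again, which is 58.8% of the first list and 90.9% of the second. In quadriceps 14 of the 17 could be tested, all 14 went the same way, and 12 were called, which is 70.6% of the first list and 92.3% of the second. The exons of Cpeb2, Tjap1, Ryr1, Dctn1, Pdlim7 and the second 15-nucleotide exon of Tnnt3 were called in all 3 sets with the same sign. So were the 12-nucleotide exon of Tnnt3 and the Rilpl1 exon with the far flanking exon, both outside the naming rule. In gastrocnemius at 4 days Cpeb2 had 0.287, 0.301, 0.312 and 0.240 in FVB and 0.961, 0.734, 0.909 and 0.850 in HSALR PBS (difference −0.58, adjusted p = 7.2e-06). In quadriceps it had 0.391, 0.275, 0.446 and 0.040 in FVB and 0.936, 0.834, 0.874 and 0.857 in HSALR PBS (difference −0.59, adjusted p = 0.0014). Neither pair of groups overlapped.

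The other recurring exons showed sizes that varied between sets. For the second 15-nucleotide exon of Tnnt3 the difference was −0.56 (adjusted p = 8.6e-08) in gastrocnemius at 4 days and −0.49 (adjusted p = 6.9e-05) in quadriceps. For Tjap1 it was −0.34 (adjusted p = 0.002) and −0.31 (adjusted p = 0.038). For Ryr1 it was 0.29 (adjusted p = 2.7e-07) and 0.17 (adjusted p = 0.011). The Ryr1 exon reached 0.305, 0.394, 0.286 and 0.307 in FVB gastrocnemius at 4 days, and 0.197, 0.227, 0.062 and 0.273 in FVB quadriceps, while every HSALR PBS library of these sets was between 0.0 and 0.053. In a second deposited table, described last, the Ryr1 means lay farther apart in both of these sets, so the size of its difference depends on the table. For Dctn1 the difference was −0.22 (adjusted p = 0.033) and −0.24 (adjusted p = 0.013), and for Pdlim7 0.27 (adjusted p = 0.0067) and 0.16 (adjusted p = 0.011). The differences between sets were not tested. Fitted alone, the compared groups gave an adjusted p of 0.12 for Tjap1 and 0.12 for Dctn1 in gastrocnemius, and in quadriceps of 0.15 for Cpeb2, 0.61 for Tjap1, 0.64 for Ryr1 and 0.1 for Dctn1. In gastrocnemius the Dctn1 call did not pass in any fit that left out 1 library other than FVB replicate 4. In quadriceps the calls of Tjap1 (without any FVB library or without HSALR replicate 1, 3 or 4), of Dctn1 (without FVB replicate 1 or 3 or HSALR replicate 4) and of Ryr1 (without FVB replicate 2 or 4) were lost.

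Further exons were called in 1 or both of these sets. The 12-nucleotide exon of Tnnt3 differed by 0.65 (adjusted p = 2.2e-08) in gastrocnemius at 4 days and by 0.45 (adjusted p = 0.00014) in quadriceps. The 18-nucleotide exon of Tnnt3 (−0.67, adjusted p = 0.002) and the Dctn4 exon (−0.29, adjusted p = 0.0024) were called in gastrocnemius. The exons of Ppp3cc (0.53, adjusted p = 0.001), Clasp1 (−0.34, adjusted p = 0.0006), Ldb3 (−0.38, adjusted p = 0.043) and Ap1b1 (−0.29, adjusted p = 0.0044) were called in quadriceps. The far-flank Rilpl1 event was called in both sets, as it was at 7 days. The near-flank Rilpl1 event, not called at 7 days, was called in gastrocnemius at 4 days (0.25, adjusted p = 0.016) and in quadriceps (0.29, adjusted p = 0.029). It lost the call in gastrocnemius without FVB replicate 2 or 4 or HSALR replicate 1 or 4. It lost the call in quadriceps without FVB replicate 3 or 4 or HSALR replicate 1, 3 or 4, and Ldb3 lost it there without any of the same libraries or FVB replicate 1. Fitted alone, the compared groups gave 5 called events in gastrocnemius at 4 days. The 18-nucleotide Tnnt3 exon (adjusted p = 0.12, and 0.06 on the logit scale), Dctn4 (0.062) and near-flank Rilpl1 (0.14) did not pass there. The compared groups alone gave 2 in quadriceps. There Ppp3cc (adjusted p = 0.087), Clasp1 (0.25), Ldb3 (0.5, and 0.082 on the logit scale), Ap1b1 (0.12) and near-flank Rilpl1 (0.39) did not pass. Without FVB replicate 4 or HSALR replicate 4 quadriceps gave 8 and 7.

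Unconjugated PMO changed no microexon that could be called, and EEV4-PMO changed 12 and 13. At 30 mg/kg the PMO gave 0 called events of 690 in gastrocnemius at 7 days (0% of all 76968 events), with 23 microexon events at an unadjusted p under 0.05 in limma and 0 called on the logit scale. EEV4-PMO at 15 mg/kg gave 12 (1.74%, against 0.309% of all events), 7 higher and 5 lower than PBS, and at 30 mg/kg 13 (1.88%, against 0.457%), 6 higher and 7 lower. These contrasts share the HSALR PBS libraries with the contrast of FVB against HSALR, so the group values are set side by side without counting agreement. The Cpeb2 exon had a mean PSI of 0.314 ± 0.046 (SD, n = 4) in FVB, 0.960 ± 0.034 (SD, n = 8) in HSALR PBS and 0.926 ± 0.033 (SD, n = 4) after PMO. After EEV4-PMO it had 0.671, 0.731, 0.696 and 0.779 at 15 mg/kg and 0.685, 0.504, 0.662 and 0.650 at 30 mg/kg. All 8 of these values lay below every PBS and PMO value and above every FVB value (15 mg/kg against PBS −0.24, adjusted p = 0.00015, and 30 mg/kg against PBS −0.33, adjusted p = 8.2e-07).

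For the Ryr1 exon and the second 15-nucleotide exon of Tnnt3 the EEV4-PMO means also lay between those of PBS and FVB. For Ryr1 PMO gave 0.046, 0.071, 0.034 and 0.054, EEV4-PMO 15 mg/kg 0.116, 0.222, 0.164 and 0.120, and EEV4-PMO 30 mg/kg 0.290, 0.261, 0.256 and 0.244. The 30 mg/kg values were above all 15 mg/kg values and below all FVB values. Against PBS the differences were 0.13 (adjusted p = 0.00012) and 0.24 (adjusted p = 9.6e-09). For the second 15-nucleotide exon of Tnnt3 PMO gave 0.805, 0.875, 0.889 and 0.911, EEV4-PMO 15 mg/kg 0.423, 0.487, 0.397 and 0.638, and EEV4-PMO 30 mg/kg 0.429, 0.392, 0.348 and 0.375. Both EEV4-PMO groups lay below every PBS library, and the PMO values lay within the PBS range (−0.33, adjusted p = 0.00021, and −0.43, adjusted p = 3.5e-06). The 12-nucleotide exon of Tnnt3 was not called at either dose. Its means were 0.850 ± 0.046 (SD, n = 4) in FVB, 0.181 ± 0.186 (SD, n = 8) in PBS, 0.266 ± 0.024 (SD, n = 4) at 15 mg/kg and 0.381 ± 0.048 (SD, n = 4) at 30 mg/kg (30 mg/kg against PBS 0.20, adjusted p = 0.47). The first 15-nucleotide exon rose to 0.837 ± 0.201 (SD, n = 4) and 0.936 ± 0.098 (SD, n = 4) from 0.235 ± 0.085 (SD, n = 8), with adjusted p = 2.3e-05 and 1.4e-06.

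Other exons with a call at both doses were those of Tjap1, Dctn1, Dctn4, Ppp3cc, Slc8a3 and Rilpl1. The Tjap1 exon fell to 0.239, 0.334, 0.149 and 0.099 at 15 mg/kg and 0.076, 0.052, 0.043 and 0.115 at 30 mg/kg (−0.33, adjusted p = 0.0032, and −0.47, adjusted p = 4e-05). The 21-nucleotide exon of Dctn1 fell to 0.460, 0.446, 0.502 and 0.558 and to 0.627, 0.515, 0.303 and 0.495 (−0.34, adjusted p = 5.2e-05, and −0.34, adjusted p = 1.8e-05). These Dctn1 values overlapped those of FVB, where the mean was 0.513 ± 0.038 (SD, n = 4). Dctn4 was at 0.083 ± 0.040 and 0.049 ± 0.038 (SD, n = 4 each) and Ppp3cc at 0.621 ± 0.080 and 0.625 ± 0.080 (SD, n = 4 each). Slc8a3 was at 0.733 ± 0.111 and 0.844 ± 0.114 (SD, n = 4 each), and Rilpl1 with the far flanking exon at 0.885 ± 0.089 and 0.947 ± 0.015 (SD, n = 4 each). The Pdlim7 exon was called at 15 mg/kg (0.22, adjusted p = 0.038) and not at 30 mg/kg (0.19, adjusted p = 0.086), where its values of 0.848, 0.825, 0.871 and 0.810 all lay above the PBS maximum of 0.747. That call and the near-flank Rilpl1 call at 15 mg/kg (0.25, adjusted p = 0.035) rested on few libraries: Pdlim7 lost it without treated replicate 1, 2 or 3 or PBS replicate 4, 5 or 8, and Rilpl1 without any treated replicate or PBS replicate 2, 3, 4 or 7. With the compared groups fitted alone the adjusted p at 15 mg/kg was 0.42 for Pdlim7, 0.064 for the near-flank Rilpl1 event and 0.16 for Tjap1.

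At 30 mg/kg 3 more exons were called. The Ap1b1 exon fell to 0.0, 0.171, 0.048 and 0.160 (−0.30, adjusted p = 0.00055). The 18-nucleotide exon of Dctn1, which lies upstream of the 21-nucleotide one, was at 0.0 in all 4 libraries against a PBS mean of 0.108 ± 0.056 (SD, n = 8), with adjusted p = 0.038. It lost the call with the compared groups fitted alone (adjusted p = 0.27) and when any 1 treated library, or PBS replicate 1, 5, 7 or 8, was left out. The 12-nucleotide exon of Sidt2, a lysosomal membrane protein, had 0.211, 0.229, 0.0 and 0.385 where all 8 PBS libraries had 0.0 (0.21, adjusted p = 0.022). It lost the call without treated replicate 1, 2 or 4 and with the compared groups fitted alone (adjusted p = 0.24). The exons of Clasp1, Ldb3 and Inpp4a were not called at either dose, with means of 0.506 ± 0.069, 0.384 ± 0.072 and 0.512 ± 0.041 (SD, n = 4 each) at 30 mg/kg beside 0.667 ± 0.110, 0.580 ± 0.094 and 0.693 ± 0.140 (SD, n = 8 each) in PBS and 0.234 ± 0.091, 0.3 ± 0.064 and 0.406 ± 0.071 (SD, n = 4 each) in FVB. The 18-nucleotide exon of Tnnt3 was not called either, with 0.185, 0.152, 1.0 and 0.280 at 30 mg/kg, where replicate 3 stood apart.

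**Figure D3:**
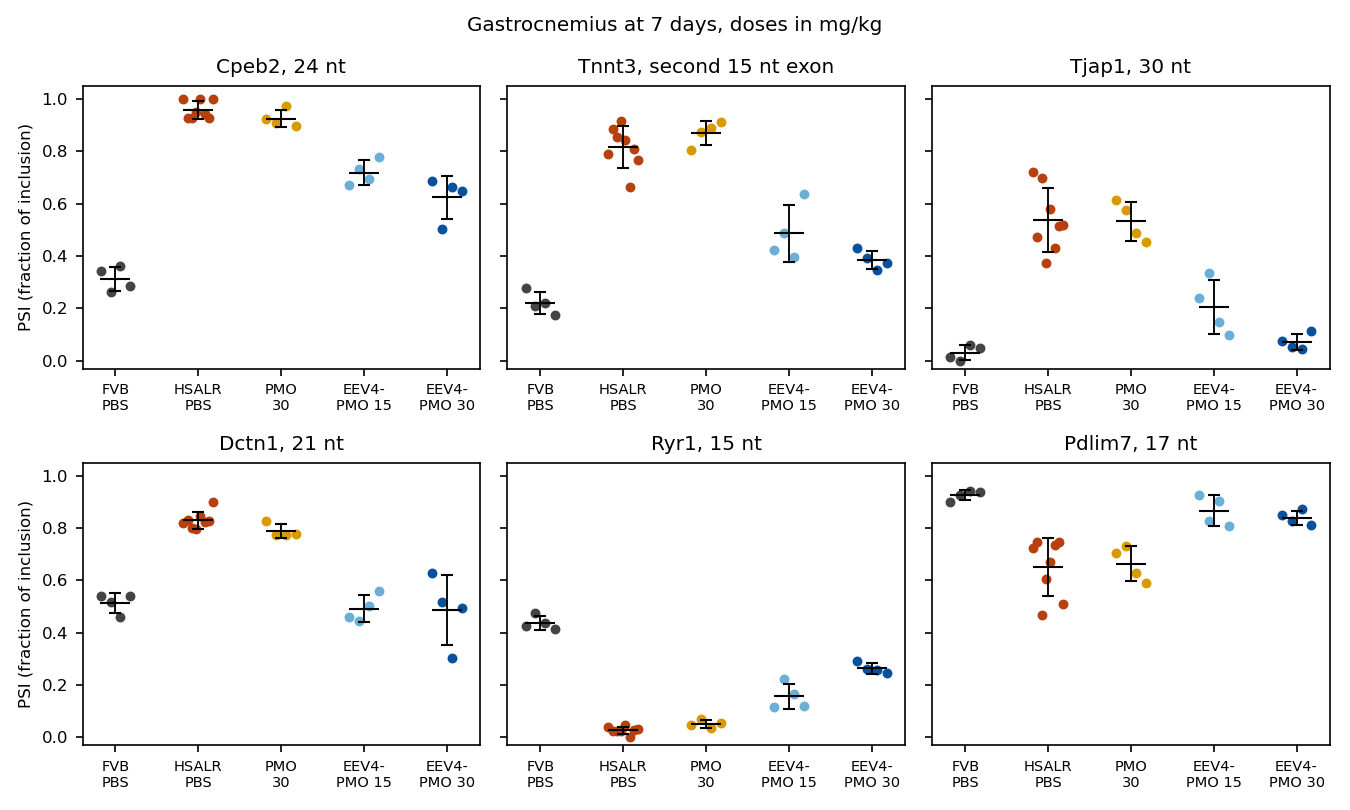
PSI (y axis) of 6 microexons in each gastrocnemius library at 7 days, by group (x axis, doses in mg/kg), with bars at the mean ± SD (n = 4, and n = 8 for HSALR PBS). The PMO 30 points lie among or close to the HSALR PBS points in the 6 panels, and the EEV4-PMO means lie nearer to FVB than the PBS means do, with the Ryr1 mean at 0.156 and 0.263 for the lower and the higher dose.

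EEV4-PMO and PMO at the same dose of 30 mg/kg share no library and differed in 13 microexon events (1.88%, against 0.377% of all events), 5 higher and 8 lower with EEV4-PMO. The largest differences were in Slc8a3 (0.76, SE 0.0664, adjusted p = 7.6e-07), the first 15-nucleotide exon of Tnnt3 (0.67, adjusted p = 2.2e-05), the second (−0.48, adjusted p = 6e-06) and Tjap1 (−0.46, adjusted p = 0.00037). The 24-nucleotide exon of Tnik, a kinase of the germinal centre family, was called in this contrast alone among those run (−0.21, adjusted p = 0.034) and was chosen after its values were seen. For all 17 exons called between FVB and HSALR at 7 days the EEV4-PMO 30 mg/kg mean lay farther to the FVB side than the PMO mean. The 2 doses of EEV4-PMO differed in 1 called event of 690 (0.145%, against 0.0182% of all events), with 22 at an unadjusted p under 0.05 in limma and 0 called on the logit scale. This was the Ryr1 exon (0.11, SE 0.018, adjusted p = 0.04), and its call was lost without any 1 of the 30 mg/kg libraries or without 15 mg/kg replicate 1, 3 or 4. The 30 mg/kg mean was farther to the FVB side for 15 of the 17 exons.

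In the time courses after EEV4-PMO 15 mg/kg no microexon was called in gastrocnemius at 1, 2 or 4 days, and calls in quadriceps began at 4 days. In gastrocnemius 23, 34 and 35 microexon events had an unadjusted p under 0.05 in limma at 1, 2 and 4 days, none was called on the logit scale, and 0%, 0% and 0.00667% of all events were called. In quadriceps the same numbers were 26 and 35 at 1 and 2 days, where 0% and 0.0145% of all events were called and none of the microexons, on the logit scale either. Without PBS replicate 1 or 2 the count at 2 days was 1. At 4 days 3 of 588 were called (0.51%, against 0.15% of all events) and at 7 days 3 (0.51%, against 0.256%). The control libraries for all days were the PBS libraries at 4 days, which are also those of the FVB contrast.

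In quadriceps the largest called changes came at 7 days. For the second 15-nucleotide exon of Tnnt3 the FVB mean was 0.191 ± 0.040 and the HSALR PBS mean 0.678 ± 0.088 (SD, n = 4 each). After 1, 2, 4 and 7 days of EEV4-PMO it was 0.710 ± 0.052, 0.632 ± 0.112, 0.496 ± 0.098 and 0.367 ± 0.084 (SD, n = 4 each). At 7 days its libraries had 0.419, 0.448, 0.260 and 0.340, all below the lowest PBS value of 0.547 and above the highest FVB value of 0.241 (−0.31, adjusted p = 0.016). For Cpeb2 the means were 0.875 ± 0.044 in HSALR PBS, then 0.744 ± 0.103, 0.604 ± 0.184, 0.656 ± 0.129 and 0.403 ± 0.058 on the same days, beside 0.288 ± 0.180 in FVB (SD, n = 4 each). Its 4 libraries at 7 days had 0.361, 0.480, 0.354 and 0.416 (−0.47, adjusted p = 0.02). The Pdlim7 exon rose from 0.775 ± 0.042 in PBS to 0.914 ± 0.046 at 7 days (SD, n = 4 each), with 0.868, 0.879, 0.954 and 0.953 (0.14, adjusted p = 0.048). These 3 calls at 7 days rested on each of several libraries: the count was 0 without treated replicate 3 or 4 or PBS replicate 3 or 4, 1 without PBS replicate 1, and 5 without PBS replicate 2. With the compared groups fitted alone Tnnt3 (adjusted p = 0.35) and Pdlim7 (0.77) did not pass, and on the logit scale Cpeb2 (0.06) and Pdlim7 (0.083) did not.

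The 3 events called at 4 days were in Rilpl1, Ap1b1 and Clasp1. Rilpl1 with the far flanking exon rose to 0.970 ± 0.018 from 0.680 ± 0.122 (SD, n = 4 each, difference 0.29, adjusted p = 0.045). The Ap1b1 exon had 0.113, 0.246, 0.219 and 0.069 against 0.492, 0.345, 0.376 and 0.452 in PBS (−0.25, adjusted p = 0.035), and the Clasp1 exon 0.301, 0.281, 0.347 and 0.292 against 0.516, 0.405, 0.630 and 0.659 (−0.25, adjusted p = 0.036). The groups did not overlap for these exons. At 4 days the count was 0 without treated replicate 1, 3 or 4 or PBS replicate 1, 3 or 4 and with the compared groups fitted alone, and 1 without treated replicate 2. Of the 13 events called between FVB and HSALR in quadriceps, all 13 had means farther to the FVB side at 7 days than at 1 day, and 5 at 7 days than at 4 days. In gastrocnemius all 11 such events had means farther to the FVB side at 4 days than at 1 day. The Tjap1 exon had 0.408 ± 0.026 at 1 day, 0.280 ± 0.067 at 2 days and 0.153 ± 0.094 at 4 days (SD, n = 4 each) in gastrocnemius, and 0.237 ± 0.158, 0.112 ± 0.048 and 0.052 ± 0.041 (SD, n = 4 each) in quadriceps. The PBS mean was 0.400 ± 0.095 (SD, n = 4) in gastrocnemius and 0.332 ± 0.157 (SD, n = 4).

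Adipocyte markers (5 of 5) reached a summed TPM of 2820 in 1 FVB quadriceps library, in a group that ran from 110, and their part in the genotype differences was not tested. In 1 gastrocnemius library at 4 days after EEV4-PMO the lymphocyte and adipocyte lists stood apart, with summed TPM running from 2.54 to 368 and from 58.5 to 2770 over that group's 4 libraries. The count of called microexons at 4 days was 0 with any library left out.

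**Figure D4:**
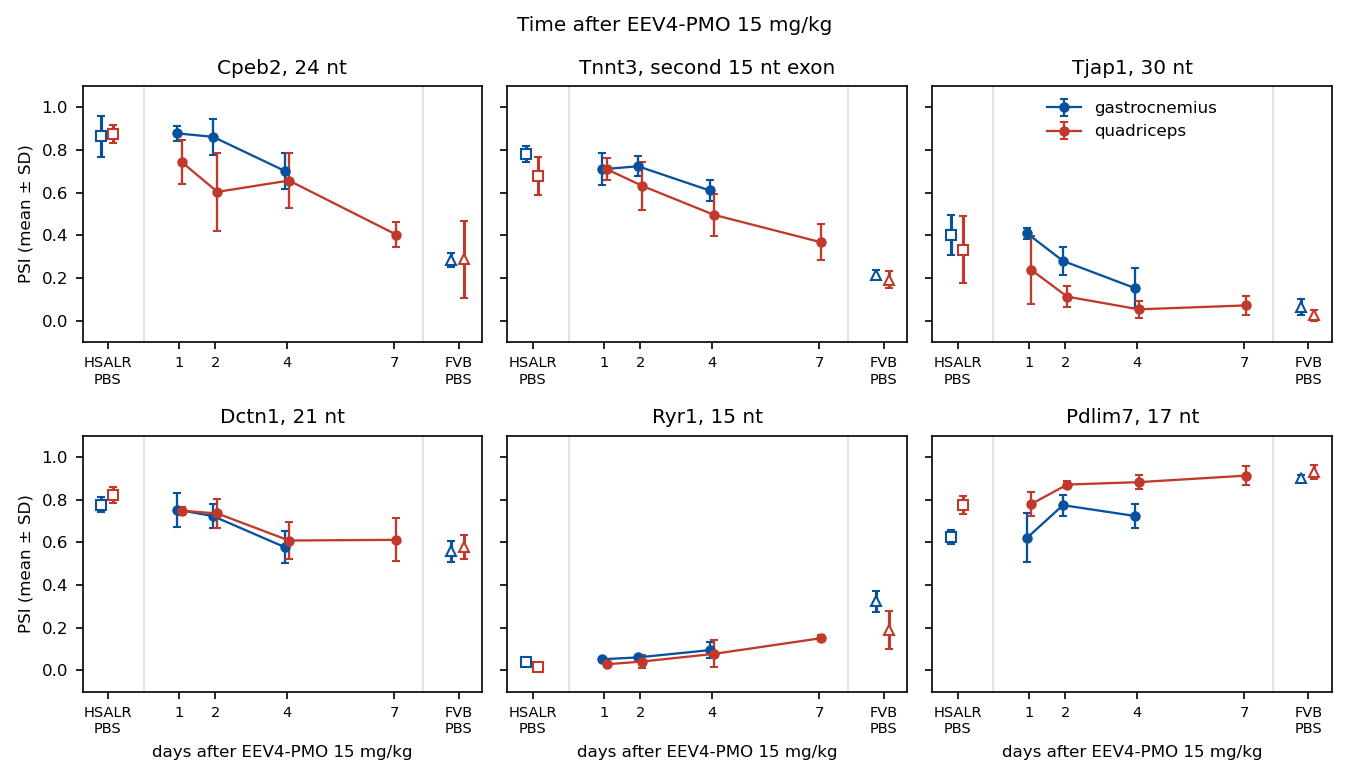
Mean PSI ± SD (y axis, n = 4 libraries) of 6 microexons by days after EEV4-PMO 15 mg/kg (x axis), in gastrocnemius (blue) and quadriceps (red), with HSALR PBS (squares) at the left and FVB PBS (triangles) at the right, both taken at 4 days. The second 15-nucleotide exon of Tnnt3 runs from 0.710 at 1 day to 0.367 at 7 days in quadriceps, and the Ryr1 exon from 0.028 to 0.151.

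Nascent RNA had 2 called microexons at each time and total RNA had 0. In nascent RNA of EU-labelled quadriceps, the Slc8a3 exon had 0.087, 0.316, 0.251 and 0.372 in PBS, 0.588, 0.711 and 0.770 at 1 day and 0.707, 0.753 and 0.637 at 2 days after EEV4-PMO 15 mg/kg. All treated libraries were above all PBS libraries (0.43, adjusted p = 0.049, and 0.44, adjusted p = 0.041). The Rilpl1 exon with the far flanking exon had 0.261, 0.505, 0.389 and 0.511 in PBS, 0.833, 0.863 and 0.819 at 1 day and 0.837, 0.846 and 0.859 at 2 days (0.42, adjusted p = 0.0058, and 0.43, adjusted p = 0.0062). These were 2 of 611 events tested at each time (0.327%, against 0.0785% and 0.123% of all events). In total RNA the Slc8a3 exon had 0.181, 0.368, 0.136 and 0.374 in PBS, 0.653, 0.653 and 0.798 at 1 day and 0.592, 0.832 and 0.742 at 2 days, again without overlap (adjusted p = 0.35 and 0.097). Rilpl1 in total RNA had means of 0.566 ± 0.096 (SD, n = 4) in PBS and 0.848 ± 0.043 and 0.924 ± 0.038 (SD, n = 3 each), with adjusted p = 0.66 and 0.067. In total RNA 0 of 611 events were called at 1 and at 2 days (0.00138% and 0.0151% of all events), with 21 and 28 at an unadjusted p under 0.05 in limma and 0 and 1 called on the logit scale.

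A call in 1 kind of RNA and not in the other does not show that the effects differ. The difference between the effect in nascent and in total RNA was tested as an interaction, and 0 of 611 microexon events were called at 1 and at 2 days (0.00275% and 0% of all events), with 14 and 21 at an unadjusted p under 0.05 in limma and 0 on the logit scale. That fit did not take same-numbered nascent and total libraries as pairs, although their gene levels deviated together. Without nascent treated replicate 1 or 2 the interaction count at 1 day was 1, and without total RNA treated replicate 3 it was 1 at 2 days. In nascent RNA the count at 1 day was 4 without treated replicate 2 and 1 without PBS replicate 3, and at 2 days it was 8 without treated replicate 3, 4 without PBS replicate 2, and 1 without PBS replicate 1 or 3. With the compared groups fitted alone it was 0 at 1 and at 2 days. In total RNA the count at 2 days was 1 without treated replicate 1 or PBS replicate 4. Of the 13 events called between FVB and HSALR in quadriceps, the treated mean lay on the FVB side of PBS for 13 in nascent RNA at 1 day and 10 in total RNA, and for 13 in each at 2 days. For the second 15-nucleotide exon of Tnnt3 the means were 0.691 ± 0.082 (SD, n = 4) in PBS, 0.677 ± 0.1 (SD, n = 3) at 1 day and 0.630 ± 0.138 (SD, n = 3) at 2 days in nascent RNA. In total RNA they were 0.740 ± 0.074 (SD, n = 4), 0.790 ± 0.085 (SD, n = 3) and 0.673 ± 0.161 (SD, n = 3). The groups overlapped in both kinds of RNA.

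Nascent and total RNA of HSALR PBS quadriceps differed in 15 microexon events, more of them included in nascent RNA. The 15 were 2.45% of 611, 11 higher and 4 lower in nascent RNA, and the share is near the 1.75% called among events of all kinds. Among skipped exon events of 31 to 300 nucleotides, 0.664% of those that keep the frame and 0.389% of those that shift it were called. These shares are set side by side as descriptions, and their difference was not tested. The 27-nucleotide exon of Myo6, a myosin that moves toward the minus end of actin filaments, had 0.0, 0.441, 0.0 and 0.108 in total RNA and 1.0, 0.904, 0.684 and 0.620 in nascent RNA (0.66, SE 0.158, adjusted p = 0.038). The total RNA values were spread widely and the groups did not overlap. The 18-nucleotide exon of p120 catenin, which the files list under Gm28635 and the annotation under Ctnnd1, had 0.375, 0.424, 0.501 and 0.469 in total and 0.908, 0.898, 0.930 and 0.982 in nascent RNA (0.49, SE 0.0624, adjusted p = 0.00047). The 24-nucleotide exon of Gopc, a Golgi PDZ protein, had 0.538, 0.522, 0.585 and 0.400 in total and 0.973, 0.943, 1.0 and 1.0 in nascent RNA (0.47, SE 0.0359, adjusted p = 1.5e-05). For Ctnnd1 and Gopc the exon was in nearly every nascent transcript and in fewer total transcripts.

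Exons of Arhgap21 and Rapgef2 were also higher in nascent RNA. The 30-nucleotide exon of Arhgap21 had 0.480, 0.392, 0.419 and 0.293 in total and 0.883, 0.982, 0.761 and 0.838 in nascent RNA (0.47, adjusted p = 0.0068). Rapgef2, an exchange factor for Rap GTPases, had 0.534, 0.504, 0.533 and 0.61 in total and 1.0, 0.950, 1.0 and 0.960 in nascent RNA (18-nucleotide exon, 0.43, adjusted p = 0.024). Mpp3, a membrane-associated scaffold protein, went the other way with its 21-nucleotide exon, with 0.931, 0.884, 0.987 and 0.921 in total and 0.435, 0.533, 0.519 and 0.524 in nascent RNA (−0.43, adjusted p = 0.011). Mpp3 and the exons that follow, other than that of Ldb3, were chosen after their values were seen. Higher in nascent RNA were exons of Acap2 (0.38), Heatr5a (0.35), Cltc, the clathrin heavy chain (0.23), Trdn (0.23), the first 15-nucleotide exon of Tnnt3 joined to the exon at 142508335 (0.19) and Mef2a, a muscle transcription factor (0.11), and lower were those of Ldb3 (−0.25), Anxa6 (−0.20) and Picalm, a clathrin assembly protein (−0.19). Of the 15 events, only that of Ldb3 was also called between FVB and HSALR. The first 15-nucleotide exon of Tnnt3 was called there too, but through its event joined to the exon at 142507750. Same-numbered nascent and total libraries deviated together in gene levels, and with these pairs as a block the count was 6: Ctnnd1 and Gopc were called, and Myo6 (adjusted p = 0.13), Arhgap21 (0.078) and Rapgef2 (0.1) were not. Without total RNA replicate 3 or 4 the count was 9. Myo6 lost the call without nascent replicate 1, 2 or 3 or total replicate 1, 3 or 4, with the compared groups fitted alone (adjusted p = 0.065) and on the logit scale (0.074), Rapgef2 without nascent replicate 1 or 3 or total replicate 1, 2 or 3, and Arhgap21 on the logit scale (0.091). The nascent libraries also differed in makeup: skeletal muscle markers (8 of 8) summed to 78500 to 93000 TPM against 178000 to 208000 in total RNA, endothelial markers to 31 to 39.9 against 156 to 223, and fibroblast markers to 309 to 452 against 1260 to 2030, and their part in the 15 differences was not tested.

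**Figure D5:**
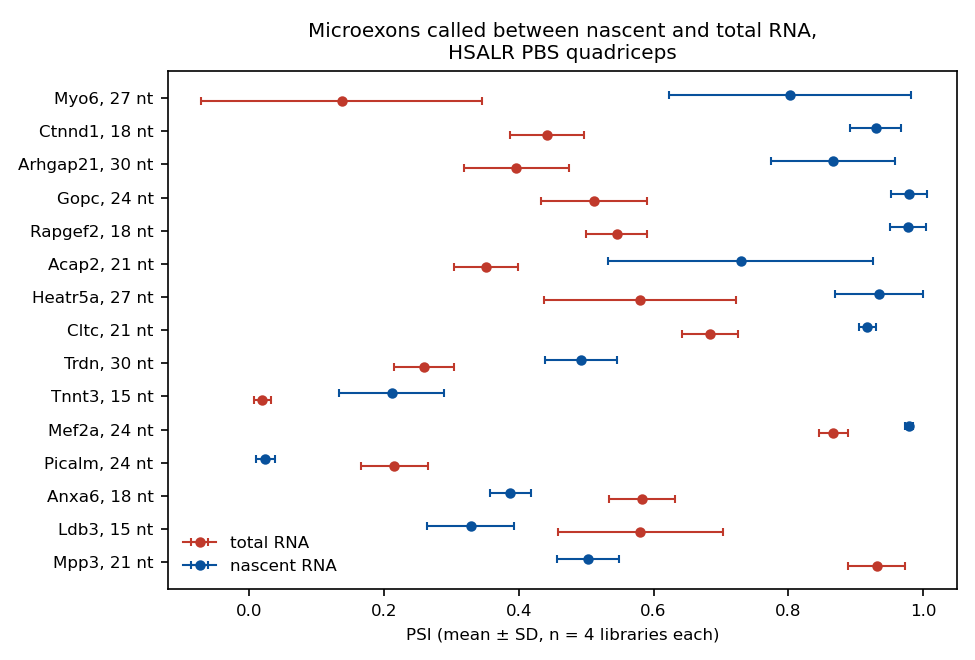
Mean PSI ± SD (x axis, n = 4 libraries each) of the 15 microexons called between nascent (blue) and total RNA (red) of HSALR PBS quadriceps, 1 exon per row, ordered by the signed difference. The upper 11 rows have the blue point to the right, from Myo6 at 0.137 in total and 0.802 in nascent RNA, and the lower 4 have it to the left.

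At 3 months after EEV4-PMO 15 mg/kg no microexon was called in quadriceps: 0 of 403 (0% of all 31227 events), with 23 at an unadjusted p under 0.05 in limma and 0 called on the logit scale. The Cpeb2 exon had 0.836, 0.899, 0.869 and 0.961 in PBS and 0.446 to 0.839, median 0.701, in the 6 treated libraries, of which 1 overlapped PBS (adjusted p = 0.76). The second 15-nucleotide exon of Tnnt3 had 0.593, 0.673, 0.672 and 0.609 in PBS and 0.384 to 0.561, median 0.409, in treated libraries, without overlap (adjusted p = 0.76). Ppp3cc had 0.392, 0.164, 0.224 and 0.378 in PBS and 0.381 to 0.579, median 0.493, with an overlap of 1 PBS library. Of the 12 quadriceps genotype events with values, the treated mean was on the FVB side of PBS for 11. The PBS libraries here are not those of the FVB contrast. Without treated replicate 5 the count was 1.

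Called microexons were also counted by lists of host genes. For reference, 17 of 690 microexon events (2.46%) and 0.555% of all events were called in gastrocnemius at 7 days. Sarcomere and Z-disc genes held 59 microexon events in 11 genes, of which 38 could be tested in gastrocnemius at 7 days, with 3 higher in FVB and 3 lower (all in Tnnt3, Pdlim7 and Ldb3). Calcium handling genes held 94 in 8 genes, with 49 tested, 2 higher (Ryr1 and Slc8a3) and 0 lower. Cytoskeleton and motor genes had 38 tested and 1 lower (Clasp1), and membrane traffic genes 7 tested and 1 lower (Ap1b1). Transcription and RNA factor genes (7 tested) and adhesion and receptor genes (14 tested) had 0 called. The median difference was 0.0 in 5 of the 6 lists and −0.0171 in adhesion and receptor genes. In gastrocnemius at 4 days the cytoskeleton and traffic lists had 0 called each, and in quadriceps 1 each. Cpeb2, Tjap1, Dctn1, Dctn4, Ppp3cc, Rilpl1 and Inpp4a are in none of these lists, and the lists were not compared by a test.

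Levels of the host genes themselves also differed in some cases. On the log2(TPM + 1) scale Pdlim7 was higher in FVB gastrocnemius at 7 days by 1.89 (adjusted p = 3.4e-12), at a mean of 573 ± 20.5 TPM (SD, n = 4) against 155 ± 25.3 TPM (SD, n = 8) in HSALR PBS. It was higher with EEV4-PMO by 0.83 (adjusted p = 6.3e-06) at 15 mg/kg and 1.14 (adjusted p = 3.4e-08) at 30 mg/kg. Tjap1 was lower in FVB (log2 difference −0.89, adjusted p = 1.4e-10) and after EEV4-PMO (−0.54, adjusted p = 2.1e-06, and −0.72, adjusted p = 1.5e-08). Tnnt3 was higher in FVB by 0.53 (adjusted p = 4.6e-05), at 30050 ± 2490 TPM (SD, n = 4) against 20820 ± 1610 TPM (SD, n = 8). Cpeb2 did not pass the test (−0.16, adjusted p = 0.25), nor did Ryr1 (0.12, adjusted p = 0.13). In quadriceps Ryr1 was higher in FVB by 0.24 (adjusted p = 0.042). With EEV4-PMO it was higher by 0.30 (adjusted p = 0.0011) at 15 mg/kg and 0.34 (adjusted p = 0.00021) at 30 mg/kg in gastrocnemius at 7 days, and by 0.52 (adjusted p = 0.00021) in quadriceps at 7 days, while Cpeb2 did not pass in any of these 3 (adjusted p = 0.15, 0.17 and 0.23).

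Among 30 genes listed as regulators of microexons or of muscle splicing, few passed the test, in shares near or under that of all genes. In gastrocnemius at 7 days 4 of 25 tested were called for FVB against HSALR, where 20.6% of all genes tested were called: Celf2 was higher in FVB (0.60 on the log2(TPM + 1) scale, adjusted p = 1.4e-06), and Celf1 (−0.28), Mbnl1 (−0.24) and Ptbp2 (−0.19) were lower. CELF proteins often act opposite to MBNL on the same exons, and PTBP2 represses many alternative exons. After EEV4-PMO Celf2 was higher than in PBS by 0.49 (adjusted p = 6.5e-05) at 15 mg/kg and 0.57 (adjusted p = 5.5e-06) at 30 mg/kg, and Rbfox1, which promotes muscle exons through GCATG elements, by 0.34 (adjusted p = 0.0048) and 0.35 (adjusted p = 0.0025). At these doses 2 and 4 of 25 were called, where 11.1% and 15% of all genes were. The numbers were 1 of 25 (8.26% of all genes) for FVB against HSALR in gastrocnemius at 4 days, 4 of 24 (13.7%) in quadriceps and 4 of 24 (13.9%) for EEV4-PMO in quadriceps at 7 days. The count at 15 mg/kg was 4 without treated replicate 1, and at 30 mg/kg it was 2 without treated replicate 4 or PBS replicate 4 or 7. In gastrocnemius at 4 days it was 2 without FVB replicate 1, 3 without FVB replicate 4 and 0 without HSALR replicate 2. Of the listed genes, 3 were hardly present: the highest level in any of the 98 libraries was 0.971 TPM for Srrm4, 0.129 TPM for Srrm3 and 0.241 TPM for Rbfox3. Other listed genes reached more, with 8.64 TPM for Nova2, 6.96 TPM for Nova1, 6.15 TPM for Celf4 and 80.3 TPM for Ptbp2. Qki, also listed, was not among the genes with a level in every library and was not tested.

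A second deposited table, of 36 exons chosen by the authors, held 6 microexons, those of Cpeb2, Dctn4, Ppp3cc, Ryr1, Slc8a3 and Trappc9. For the 5 that also have the same event in the large table, the median absolute difference in PSI per library between tables was 0.002 for Dctn4, 0.005 for Cpeb2, 0.007 for Slc8a3, 0.013 for Ppp3cc and 0.025 for Ryr1. The Ryr1 values differed by up to 0.5 in single libraries. In gastrocnemius at 4 days the table of 36 exons gave Ryr1 a mean of 0.727 ± 0.040 in FVB and 0.222 ± 0.015 in HSALR PBS (SD, n = 4 each), where the large table gave 0.323 ± 0.048 and 0.038 ± 0.012 (SD, n = 4 each). In quadriceps at 4 days it gave 0.621 ± 0.074 in FVB and 0.1835 ± 0.0275 in HSALR PBS, where the large table gave 0.190 ± 0.091 and 0.015 ± 0.017 (SD, n = 4 each). In gastrocnemius at 7 days the tables were closer, with 0.465 ± 0.028 and 0.437 ± 0.027 in FVB (SD, n = 4 each). The genotypes were separated in both tables, but the level of this exon depends on the table used. The 21-nucleotide exon of Trappc9, a subunit of the TRAPP tethering complex of membrane traffic, at chr15:73055748-73055768, matched no event of the large table. In the table of 36 exons it had 0.537 ± 0.107 (SD, n = 4) in FVB gastrocnemius at 7 days, 0.085 ± 0.075 (SD, n = 8) in HSALR PBS, 0.125 ± 0.033 after PMO, 0.384 ± 0.147 after EEV4-PMO 15 mg/kg and 0.497 ± 0.043 after 30 mg/kg (SD, n = 4 each). In quadriceps at 4 days it had 0.656 ± 0.231 in FVB and 0.187 ± 0.070 in HSALR PBS (SD, n = 4 each). No test was run on this table, since its exons were selected by the authors.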

How the data were processed

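RNA from gastrocnemius and quadriceps was depleted of ribosomal RNA and sequenced from strand-marking libraries, per the labels' protocols. Per the labels, the EU set with its total RNA was extracted with another kit than the rest. GRCm38 and mm10 are the builds, and STAR, kallisto and cutadapt the tools, in the submitters' processing notes; versions are not given in the sources used here. The authors deposited PSI as a fraction between 0 and 1 for each rMATS event and library, and gene levels as TPM. Neither file gives read counts, so depth and counting error are unknown and no count model was used. Aligners place reads less surely over very short exons, and the effect of this on PSI was not tested.

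Linear PSI was fitted with limma 3.58.1 (R 4.3.3), giving each group of a cohort its own mean, a trended prior variance and Benjamini-Hochberg adjustment over every event of the whole table with a value in all libraries of the cohort. The cohorts had 690, 680, 588, 611 and 403 testable microexon events (gastrocnemius dose set and time course, quadriceps time course, EU set, 3 months), and 222, 316, 316, 215 and 758 had no value in them. Called means an adjusted p under 0.05 and a difference of at least 0.1. Genes with a mean of at least 1 TPM were tested with limma on log2(TPM + 1). The scripts were tested on simulated data.

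The event with most values stood for each exon. Named were exons called with 1 sign in all 3 genotype comparisons, the 20, 10 or 5 largest called ones by comparison, and examples from lists. The members and lists were chosen with earlier results of these data known. Same-numbered libraries were not taken as pairs, as their numbers mark no shared animal in the labels, except nascent and total RNA of HSALR PBS. There the deviations of all 4 same-numbered pairs correlated by 0.128 to 0.289 in log2 TPM (0.008 to 0.041 in PSI), so the blocked result is given beside the unblocked one. Treated nascent and total pairs correlated by 0.098 to 0.243 at 1 day and by 0.129 to 0.269 at 2 days in log2 TPM. The interaction of treatment with the kind of RNA is given from the unblocked fit. Alternatives were the logit scale, missing values, a minimum difference of 0.2, a limit of 27 nucleotides, the compared groups alone, a replicate block, left-out libraries, another pseudocount, no filter on genes and, chosen after seeing the data, only events that vary in a cohort.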

Additional observations from a re-analysis of the deposited data

Results flagged for a closer look

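In 5 of the 107 groups of at least 4 libraries examined for the named exons, 1 library stood far from the others. Chance gives about 1 in 20 such groups. The 21-nucleotide exon of Dctn1 had a PSI of 0.9 in HSALR PBS gastrocnemius at 7 days, replicate 8, where the other libraries had 0.794 to 0.844. The Dctn4 exon had 0.032 in FVB gastrocnemius at 7 days, replicate 2, where the others had 0.0, and 0.292 in PMO 30 mg/kg replicate 1, where the others had 0.416 to 0.432. The Ap1b1 exon had 0.216 in FVB gastrocnemius at 7 days, replicate 4, where the others had 0.1 to 0.106. The second 15-nucleotide exon of Tnnt3 had 0.547 in HSALR PBS quadriceps at 4 days, replicate 2, where the others had 0.718 to 0.729.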

How the results depend on the processing

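No result reversed. Of the 29 counts, 11 stayed within 1.5 times in every alternative other than left-out libraries, and the 67 single-exon results kept their call in 282 of those fits and lost it in 53. With 1 library left out they kept it in 553 fits and lost it in 111. Events chosen after their values were seen are not among the 67. With the compared groups fitted alone, microexon counts were 5 (FVB against HSALR, gastrocnemius 4 days), 2 (the same in quadriceps), 0 (EEV4-PMO 30 against 15), 0 (quadriceps 4 days), 0 and 0 (nascent RNA at 1 and 2 days) and 1 (total RNA at 2 days), and regulator counts were 0 and 2 (FVB against HSALR, gastrocnemius 4 days and quadriceps) and 2 (EEV4-PMO 30). EEV4-PMO 30 against 15 gave 0 at a minimum difference of 0.2 and 0 on the logit scale, where nascent RNA at 1 day gave 1 and total RNA at 2 days 1. With missing values allowed, nascent RNA at 2 days gave 4 and 3 months 1. Without a filter on low genes, regulators gave 2 (gastrocnemius 4 days) and 2 (EEV4-PMO 30).

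Same-numbered libraries deviated together with correlations of at most 0.066 in PSI. With a replicate block, EEV4-PMO 30 against 15 gave 0, total RNA at 2 days 2, nascent against total RNA 6, and regulators 2 (FVB against HSALR, gastrocnemius 7 days), 4 (EEV4-PMO 15) and 6 (EEV4-PMO 30). Gene levels of nascent and total libraries correlated best with their own number in all 10 pairs.

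Leaving out 1 library gave, for FVB against HSALR, 16 to 19 in gastrocnemius at 7 days, 8 to 11 at 4 days and 7 to 14 in quadriceps. At 7 days PMO gave 0 to 0, EEV4-PMO 15 gave 10 to 14, EEV4-PMO 30 gave 11 to 15 against PBS, 11 to 14 against PMO and 0 to 1 against 15 mg/kg. The gastrocnemius time course gave 0 to 0 at 1, 2 and 4 days, and quadriceps 0 to 0, 0 to 1, 0 to 4 and 0 to 5. Total RNA gave 0 to 0 and 0 to 1, nascent RNA 1 to 4 and 1 to 8, nascent against total 9 to 14, the interactions 0 to 1 each and 3 months 0 to 1. Regulators gave 3 to 5, 0 to 3 and 3 to 4 for FVB against HSALR, and 2 to 4, 2 to 4 and 3 to 5 for EEV4-PMO 15, 30 and quadriceps at 7 days. The unknown read depth limits every PSI of a low gene.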
